A study of Mus musculus with 10 samples.

Results

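Small nucleolar RNAs (snoRNAs) and their host genes were compared between 2 sorted populations of mouse regulatory T cells (Treg cells). The members were all rows of the gene table whose symbol starts with Snord (59 rows), Snora (31 rows) or Snhg (10 rows), together with Gas5, 101 of 13252 rows in all. Per the labels, the groups were CD4+RFP+GFP+ cells, called Helios+, and CD4+RFP+GFP- cells, called Helios−, with 5 libraries each, numbered 1 to 5 in both groups. The labels give no strain, age, sex, tissue or treatment, do not say what RFP reports, and do not say whether the libraries came from separate mice, and the spread on which the p-values rest may therefore be technical. The series' design text names wild-type and Helios knockout cells instead, whereas the sample labels describe 2 gates on GFP. The groups here follow the sample labels.

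SnoRNAs are short nucleolar RNAs that work inside protein particles and guide the modification of ribosomal RNA by base pairing. Those of the box C/D class (Snord genes) direct ribose methylation, and those of the box H/ACA class (Snora genes) direct the conversion of uridine to pseudouridine. Most mammalian snoRNAs are cut out of introns of a host gene. Many hosts encode ribosomal proteins or translation factors, while others, the Snhg genes and Gas5, make spliced RNAs without a known protein product that are often short-lived in the cytoplasm. Mature snoRNAs carry no poly(A) tail, and the libraries were of total RNA, made per the labels with a stranded kit for picogram input.

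The sequences below are those on which the results turn: members with large changes in each class, the most abundant box C/D row, snoRNAs of noncoding hosts and the row with the lowest change. They are from GENCODE M21 on mm10, the build named in the submitters' processing notes, and all 90 snoRNA rows had an entry. In box C/D sequences the capitals mark TGATGA, the box C core, where it occurs in the first 20 bases, and CTGA, box D, in the last 20 bases. Snord47 lies at chr1:161038082-161038158, plus strand, within Gas5. Snord12 lies at chr2:167065276-167065365, plus strand. Snord87 lies at chr1:9942463-9942549, minus strand, within Snhg6. Snord15b lies at chr7:99479563-99479707, minus strand, within Rps3. Snord22 lies at chr19:8725866-8725991, plus strand, within Snhg1. Snord95 lies at chr11:48803139-48803206, plus strand, within Gnb2l1.
Snord47: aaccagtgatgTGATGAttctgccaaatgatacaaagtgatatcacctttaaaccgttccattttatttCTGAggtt
Snord12: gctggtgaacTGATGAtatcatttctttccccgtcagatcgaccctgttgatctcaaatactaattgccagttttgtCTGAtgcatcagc
Snord87: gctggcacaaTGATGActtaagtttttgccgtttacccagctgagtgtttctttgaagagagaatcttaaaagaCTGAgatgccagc
Snord15b: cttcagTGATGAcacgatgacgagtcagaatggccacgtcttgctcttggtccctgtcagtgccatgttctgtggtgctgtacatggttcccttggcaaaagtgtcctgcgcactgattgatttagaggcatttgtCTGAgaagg
Snord22: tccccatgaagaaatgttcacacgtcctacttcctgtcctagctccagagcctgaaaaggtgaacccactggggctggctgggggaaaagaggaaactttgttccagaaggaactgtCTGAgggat
Snord95: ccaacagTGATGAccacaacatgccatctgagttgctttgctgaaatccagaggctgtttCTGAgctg

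In box H/ACA sequences the capitals mark the trinucleotide ACA in the last 8 bases. Snora34 lies at chr15:98519716-98519853, minus strand, Snora70 at chrX:74272484-74272620, plus strand, Snora15 at chr5:129794546-129794676, plus strand, Snora16a at chr4:132309464-132309600, plus strand, and Snora21 at chr11:97781639-97781775, minus strand.
Snora34: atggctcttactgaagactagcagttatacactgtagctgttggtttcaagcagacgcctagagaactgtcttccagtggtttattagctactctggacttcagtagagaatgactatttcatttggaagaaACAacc
Snora70: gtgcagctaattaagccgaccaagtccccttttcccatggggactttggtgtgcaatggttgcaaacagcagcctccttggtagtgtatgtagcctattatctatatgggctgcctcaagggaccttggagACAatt
Snora15: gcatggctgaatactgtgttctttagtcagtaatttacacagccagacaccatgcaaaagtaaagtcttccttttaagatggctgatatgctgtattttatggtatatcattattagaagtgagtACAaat
Snora16a: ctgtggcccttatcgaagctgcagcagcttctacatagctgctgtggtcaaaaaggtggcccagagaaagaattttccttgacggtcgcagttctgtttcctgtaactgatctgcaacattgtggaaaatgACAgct
Snora21: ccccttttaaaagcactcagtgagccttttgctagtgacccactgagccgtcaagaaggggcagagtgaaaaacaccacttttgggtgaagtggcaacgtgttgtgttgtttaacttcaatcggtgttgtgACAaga

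The letters TGATGA and CTGA, searched on the annotated strand in those windows, were both present in 34 of the 59 box C/D rows (57.6%), against 0.0464% of 140039 other GENCODE transcripts. CTGA was found in 57 of the 59 rows and TGATGA in 36, with Snord22 among those without it. The trinucleotide ACA stood in the last 8 bases of 29 of the 31 box H/ACA rows (93.5%), against 11.1% of the other transcripts. Annotated lengths had a median of 80 bases in the box C/D rows (64 to 238) and of 132 bases in the box H/ACA rows (127 to 196). A match is a description of these letters, and a row without one may carry a variant of the box.

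Depth was similar in the 2 groups, with 4872348 to 6948692 reads on table genes per library. Ikzf2, which encodes Helios, was at 418 to 572 normalized counts in the Helios− libraries and at 9667 to 10906 in the Helios+ libraries, so every library matched its label. Foxp3, the defining transcription factor of Treg cells, was at 3284 to 3833 in all 10. Of the 6 Treg markers tested, Il2ra (log2 change 0.25) and Ctla4 (0.58) were called higher and 0 lower. Those 2 calls, and those of Ebf1 and Klrk1 given next, ended with at least 1 single library left out. Of markers of other cell types, Csf1r of macrophages rose and was the only called one of 9 tested myeloid markers (log2 change 0.73, adjusted p = 0.00251). The summed myeloid markers were at 271 to 399 normalized counts in Helios− and 356 to 644 in Helios+, with Cd14 and C1qa at mean levels of at most 10. Summed B-cell markers (8 tested, Ebf1 called lower, Cd22 and Ms4a1 most abundant) were at 1779 to 2537 and 1572 to 2224. Summed CD8 and NK-cell markers (8 tested, Klrk1 called lower, Cd8b1 and Cd8a most abundant) were at 527 to 637 and 485 to 568, and red-cell and platelet markers at most at 23.4. Their part in the results was not tested.

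One library stood apart in the members. Helios+ replicate 5 was the highest of the 10 libraries for 55 of the 62 snoRNA rows tested, and for all 31 rows called. Helios+ replicate 4 was the lowest of its group on balance, with a median deviation of -0.49 (log2) from its group's mean over the 62 rows. Counts are therefore also given without Helios+ replicate 5.

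SnoRNAs of both classes were more abundant in Helios+ cells. Among the 71 members with a mean of at least 10 normalized counts, 31 of the 62 snoRNA rows (50%) were called higher, that is, at an adjusted p under 0.05 in limma across all 10718 genes tested, and none was called lower. Over all genes 14.1% were called higher and 10.7% lower. At an unadjusted p under 0.05 there were 38 snoRNA rows higher and 0 lower, against 1997 and 1807 of the 10718 genes. Both edgeR and DESeq2 also called 0 snoRNA rows lower, against 1080 and 1252 of all genes. The median log2 change (Helios+ minus Helios−) was 0.69 over the 35 box C/D rows tested, 0.60 over the 27 box H/ACA rows and −0.02 over all genes tested. Of the 62 snoRNA rows, 59 had a positive change. Called changes ran from 0.40 to 1.74 on the log2 scale, and mean levels of the called rows from 22.95 to 7821 normalized counts. In bulk samples, more cells of a kind and more RNA per cell cannot be told apart.

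Both classes contributed to these calls. In the box C/D class 18 of 35 rows were called (51.4%), and in the box H/ACA class 13 of 27 (48.1%). Every Helios+ library lay above every Helios− library in 7 box C/D and 10 box H/ACA rows, 17 of 62 in all, and in none did every Helios+ library lie below. Over all genes, 11.2% had all Helios+ libraries above and 8.37% had all below. Of the 62 tested rows, 35 were higher in Helios+ within each of the 5 replicate numbers. They included all 31 called rows, which were picked by their difference in these same libraries. Without Helios+ replicate 5, 28 snoRNA rows were called and the median change over the 62 rows was 0.46. Without both libraries of replicate 5, 22 were called at a median of 0.43. Of all 10718 genes tested, 1512 were called higher with all libraries. This fell to 1332 without Helios+ replicate 5 and to 1212 without both libraries of replicate 5.

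**Figure D1:**
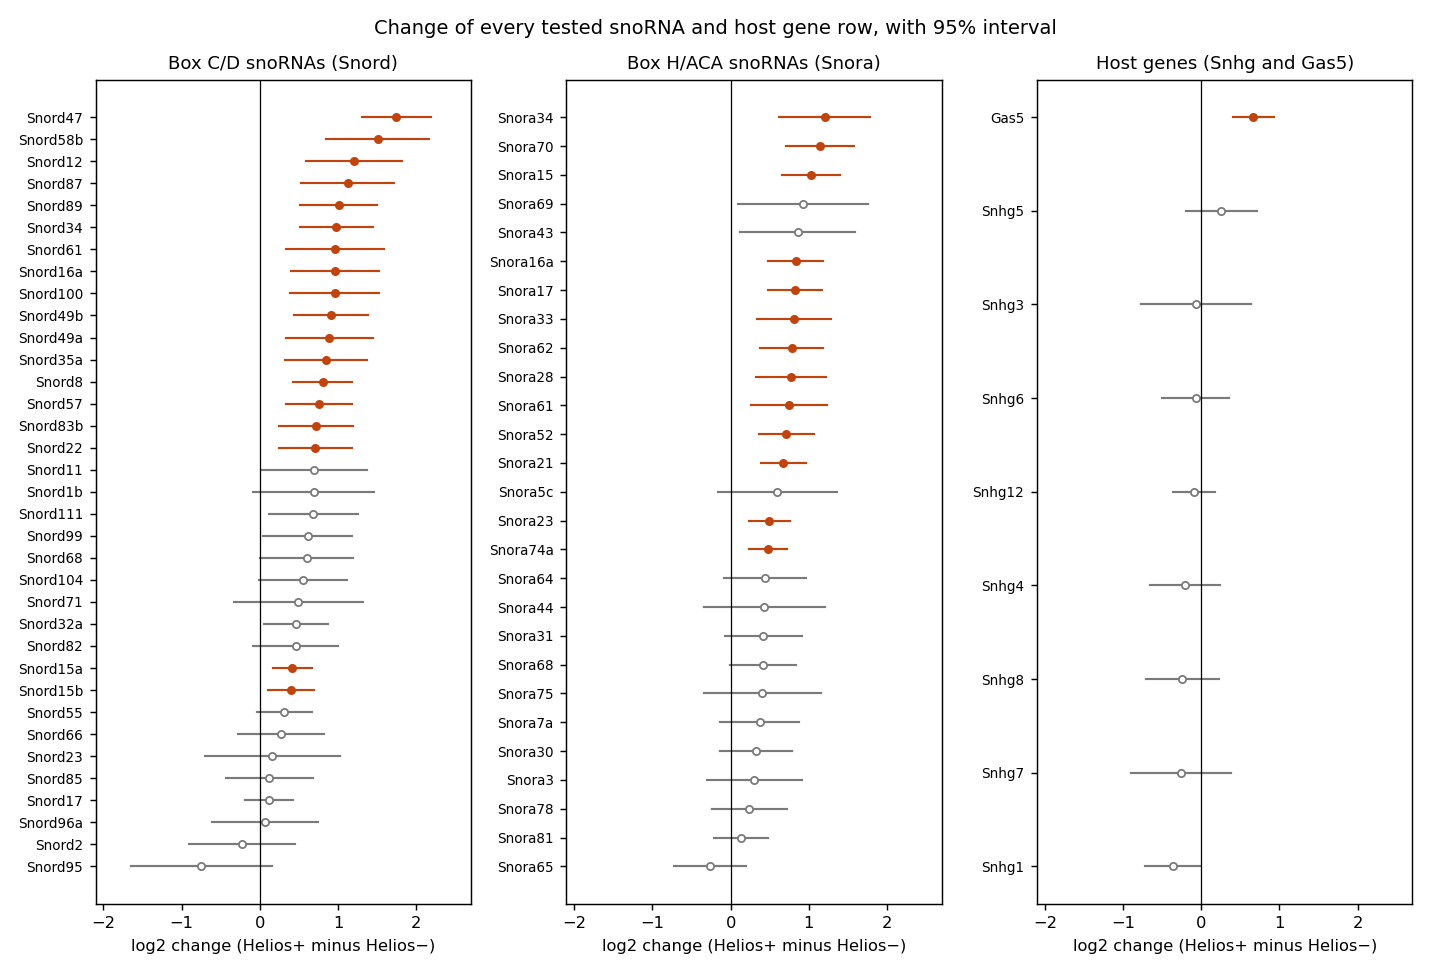
Log2 change (Helios+ minus Helios−, of normalized count + 1, x axis) of every tested member with its 95% interval, sorted within the box C/D rows (35), the box H/ACA rows (27) and the host genes (9). Filled orange points passed an adjusted p of 0.05 and open grey points did not. All 31 snoRNA rows called lie right of 0, and of the Snhg and Gas5 rows Gas5 alone was called.

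Of the box C/D class, Snord47 had the largest change. It was at 55.1, 51.9, 67.7, 52.2 and 74.0 normalized counts in Helios− libraries 1 to 5, and at 203, 165, 192, 143 and 359 in Helios+ libraries 1 to 5. The groups did not overlap, and the mean rose 3.53-fold (log2 change 1.74 ± 0.21 SE, limma adjusted p = 1.6e-05). Snord47 is a guide for methylation of the large-subunit ribosomal RNA. With any single library left out its adjusted p was at most 0.000104.

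Snord58b, in the ribosomal protein gene Rpl17, was a low row with the next largest change. It was at 18.7, 16.9, 9.83, 8.55 and 16.5 in Helios− and at 51.3, 41.8, 39.3, 19.4 and 63.7 in Helios+. The groups met without overlap, since Helios+ replicate 4 (19.4) was just above Helios− replicate 1 (18.7), and the log2 change was 1.51 ± 0.31 (SE, adjusted p = 0.00188). Snord12 went from 25.8, 17.99, 20.8, 26.5 and 30.2 to 60.8, 45.2, 54.7, 31.1 and 119 (log2 change 1.203 ± 0.29, adjusted p = 0.00558). Its host 1500012F01Rik is named Zfas1 in RefSeq, a noncoding RNA gene known for its snoRNAs. For Snord87 the values were 342, 205, 251, 190 and 279 in Helios− and 596, 536, 509, 298 and 950 in Helios+, so that the lowest Helios+ library lay below the highest Helios− library. Its log2 change was 1.12 ± 0.27 (SE, adjusted p = 0.0101).

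The 4 most abundant rows held 85.5% of the box C/D level. Snord15b alone, a guide encoded with Snord15a in introns of the ribosomal protein gene Rps3, made up 42.5%. It was at 5579, 7180, 8234, 5544 and 7146 in Helios− and at 7459, 8108, 9664, 7645 and 11653 in Helios+. The groups overlapped, the log2 change was 0.40 ± 0.14 (SE, adjusted p = 0.0458), and leaving out any of 7 single libraries ended the call (adjusted p up to 0.119). Snord15a was at 1857 to 2826 in Helios− and at 2768 to 4058 in Helios+ (log2 change 0.41, adjusted p = 0.0162). Snord22, in Snhg1, was at 1037, 1611, 1789, 1046 and 1486 against 2080, 1932, 2349, 1629 and 3505. Its log2 change was 0.71 ± 0.21 (SE, adjusted p = 0.0297), and leaving out any of 3 single libraries ended the call (adjusted p up to 0.114). Snord17, in Snx5, did not pass: it was at 2280 to 4005 in Helios− and 2807 to 4115 in Helios+ (log2 change 0.11, 95% interval -0.19 to 0.42, adjusted p = 0.627).

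Per kilobase of annotated exon, Snord15b stood at 46460 in Helios− and 61418 in Helios+, Snord15a at 16182 and 21540, Snord17 at 13295 and 14271, and Snord22 at 11061 and 18247. The other 15 called box C/D rows were lower on this scale. They were Snord100, Snord12, Snord16a, Snord34, Snord35a, Snord47, Snord49a, Snord49b, Snord57, Snord58b, Snord61, Snord8, Snord83b, Snord87 and Snord89, with log2 changes of 0.72 (Snord83b) to 1.74 (Snord47). Snord89, with a log2 change of 1.01, had no annotated host in the table. Snord95, in Gnb2l1, had the lowest change. It was at 12.9, 27.5, 7.65, 18.8 and 4.87 in Helios− and at 7.34, 4.18, 5.98, 6.80 and 11.6 in Helios+, overlapping groups with a log2 change of -0.75 that did not pass (adjusted p = 0.224).

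**Figure D2:**
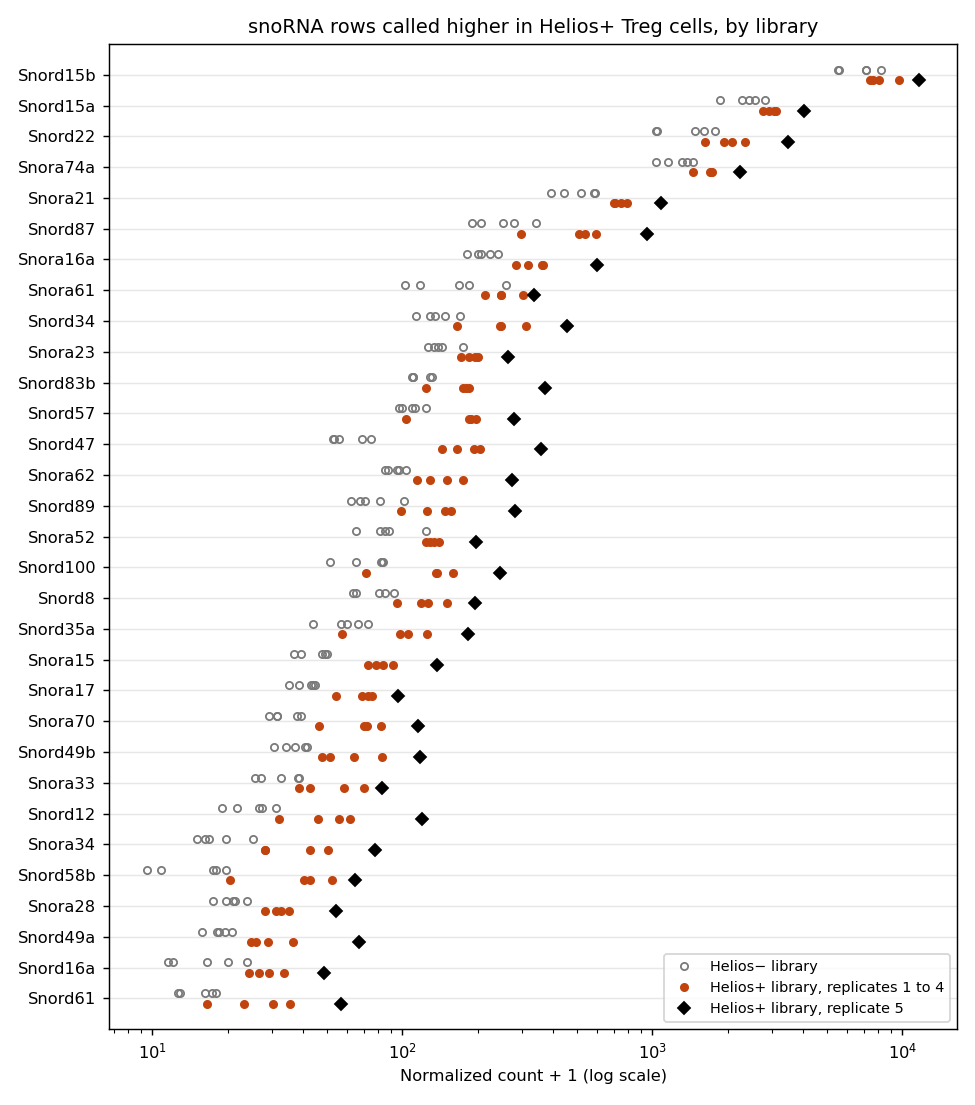
Normalized count + 1 (log scale, x axis) of the 31 snoRNA rows called higher, by library, sorted by mean level. Open grey circles are Helios− libraries, orange circles Helios+ replicates 1 to 4 and black diamonds Helios+ replicate 5. The black diamond is the highest point in each of the 31 rows, and the orange circles of 17 rows lie entirely right of the grey circles.

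Of the box H/ACA class, Snora34 had the largest change. It was at 14.1, 15.9, 15.3, 18.8 and 24.3 in Helios− and at 27.2, 49.3, 41.9, 27.2 and 76.5 in Helios+, without overlap (log2 change 1.201 ± 0.28 SE, adjusted p = 0.00424). Snora70, in the ribosomal protein gene Rpl10, was at 30.5, 30.7, 38.2, 36.8 and 28.2 against 71.3, 69.4, 81.2, 45.7 and 115 (log2 change 1.14 ± 0.21, adjusted p = 0.000663). Snora15, in Cct6a, which encodes a chaperonin subunit, was at 36.0 to 49.2 against 71.8 to 137 (log2 change 1.03 ± 0.17, adjusted p = 0.000378). In these 3 rows every Helios+ library was above every Helios− library.

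The most abundant box H/ACA rows were Snora74a, Snora21, Snora7a and Snora16a, with 63.2% of the class level. Snora74a was at 1032, 1319, 1451, 1154 and 1371 in Helios− and at 1696, 1720, 1728, 1452 and 2236 in Helios+, so that the groups were parted only narrowly (log2 change 0.48 ± 0.11 SE, adjusted p = 0.0052). Snora21, in Rpl23, was at 442, 591, 583, 392 and 520 against 793, 747, 710, 701 and 1083 (log2 change 0.67 ± 0.13, adjusted p = 0.00183). Snora7a, in Rpl32, was at 239 to 382 against 254 to 715 and did not pass (log2 change 0.37, adjusted p = 0.279). The other called rows were Snora16a, Snora17, Snora23, Snora28, Snora33, Snora52, Snora61 and Snora62, with log2 changes of 0.49 (Snora23) to 0.83 (Snora16a). The lowest change was that of Snora65, in Rpl12, at 29.1 to 54.0 in Helios− and 24.8 to 49.8 in Helios+ (log2 change -0.26, adjusted p = 0.425).

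The 28 snoRNA rows below the mean of 10 were not tested. They had means of 0.999 to 9.63 normalized counts over the 10 libraries, and in 18 of the 28 the Helios+ mean was above the Helios− mean. Among them were Snord110, with means of 6.38 in Helios− and 12.9 in Helios+, Snord70, with 4.73 and 12.7, and Snord91a, with 7.33 and 2.92. These 3 were picked after their values were seen.

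Among the host rows of the member set, those of Gas5 and the Snhg genes, only Gas5 was called. Hosts with other symbols are given below with their snoRNAs. Of the 9 host rows tested (Gas5 and 8 Snhg rows), 1 was called higher (11.1%) and 0 lower, against 14.1% and 10.7% of all genes, so the count called higher was near the background. Their median log2 change was -0.09. At an unadjusted p under 0.05 Snhg1 was lower, and edgeR and DESeq2 called 0 lower. Gas5, a growth-arrest RNA whose spliced form is a substrate of nonsense-mediated decay, was at 1101, 959, 898, 944 and 978 in Helios− and at 1556, 1429, 1475, 1214 and 2209 in Helios+. The groups did not overlap (log2 change 0.67 ± 0.12 SE, 95% interval 0.40 to 0.93, adjusted p = 0.00103). With the replicate number as a block in the model, Snhg1 also passed, in the lower direction (adjusted p = 0.0238). It was at 153, 108, 80.8, 97.5 and 109 in Helios− and at 102, 85.3, 77.8, 90.3 and 64.9 in Helios+, lower in all 5 replicate numbers (log2 change -0.37 ± 0.16 SE, adjusted p = 0.124 without the block).

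None of the other 7 tested Snhg rows passed. Snhg12 was at 72.0 to 111 in Helios− and 78.6 to 91.6 in Helios+ (log2 change -0.09, 95% interval -0.36 to 0.18). Snhg5 was at a mean of 71.0 ± 21.1 (SD, n = 5) against 84.2 ± 22.6 (log2 change 0.26, interval -0.20 to 0.71). Changes were -0.20 for Snhg4, -0.07 for Snhg3 and Snhg6, -0.24 for Snhg8 and -0.26 for Snhg7. Snhg9 and Snhg10, at means of 4.09 and 6.64, were not tested.

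Summed by class and library, the same contrast appeared. Box C/D rows summed to 13376, 16101, 18779, 13040 and 16645 normalized counts in Helios− libraries 1 to 5 and to 18761, 19538, 22031, 16939 and 28906 in Helios+. The fold of the means was 1.36, and the groups overlapped, with Helios+ replicates 1 and 4 below Helios− replicate 3. Box H/ACA rows summed to 3090, 3906, 4235, 3136 and 3737 against 5098, 4904, 5176, 4177 and 7450. The mean was 1.48-fold higher, and of the Helios+ libraries only replicate 4 lay below Helios− replicate 3. As shares of all reads on table genes, box C/D rows took 0.224% to 0.280% in Helios− and 0.305% to 0.497% in Helios+, and box H/ACA rows 0.0538% to 0.0644% and 0.0752% to 0.128%. These shares did not overlap. Host rows summed to 1.40-fold more in Helios+, a value set by Gas5: without it the fold was 0.907.

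Each snoRNA was then set against the gene it is nested in. Of the 90 snoRNA rows, 87 had a host in the table, 84 of them by GENCODE on the same strand. In all, 55 pairs with 44 hosts could be tested, with limma on the log2 ratio of snoRNA to host over all 173 nested pairs of table genes. The ratio was called higher in Helios+ for 23 of the 55 pairs and lower for 0, against 16.2% higher and 7.51% lower among all 173 pairs. With the block these counts were 24 and 0, and 52 of the 55 ratio changes were positive. The median change of the ratio was 0.70, from a median snoRNA change of 0.68 and a median host change of -0.14. Among the 118 other nested pairs the ratio was called higher in 5 and lower in 13 (median change -0.07).

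**Figure D3:**
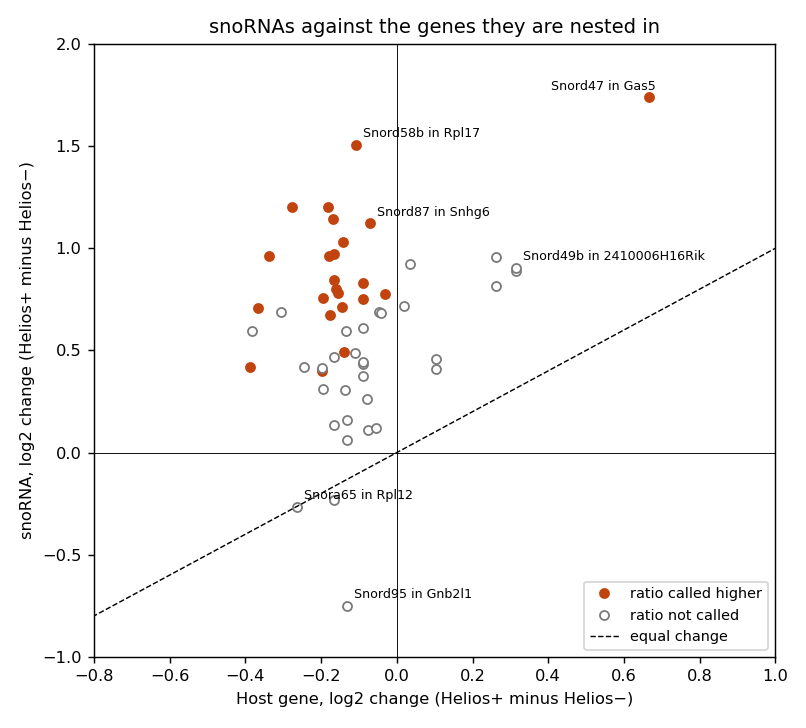
Log2 change (Helios+ minus Helios−) of each snoRNA (y axis) against that of its host gene (x axis) for the 55 tested pairs. Filled orange points are the 23 pairs whose ratio was called higher, open grey points the others, and the dashed line marks equal change; 52 points lie above it.

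Leaving out 1 library moved the count of ratio calls by over 1.5 times in 5 cases: to 14 without Helios− replicate 4, Helios+ replicate 1 or Helios+ replicate 5, and to 15 without Helios− replicate 2 or Helios− replicate 5. None of these gave a pair called lower. Of the 23 ratio calls, 13 held with any single library left out: Snora15, Snora16a, Snora21, Snora34, Snora70, Snord12, Snord16a, Snord47, Snord57, Snord58b, Snord61, Snord8 and Snord87. The other 10 lost the call without at least 1 of the libraries. Across the 55 pairs, Spearman's rho between snoRNA and host change was 0.11, a description over pairs that share the same 10 libraries. Of the 44 hosts in the pairs, Gas5 and 2410006H16Rik were called higher and 3 were called lower: Nop56 (log2 change -0.20, adjusted p = 0.0296), a core box C/D protein, Chd8 (-0.16, adjusted p = 0.0448), a chromatin remodeller, and Tbrg4 (-0.38, adjusted p = 0.0202). Of these 5 calls Gas5 alone held with any single library left out. The call of Nop56 ended without any of 5 libraries (adjusted p up to 0.0829), that of Chd8 without any of 9 (up to 0.104), that of Tbrg4 without any of 3 (up to 0.0558) and that of 2410006H16Rik without any of 8 (up to 0.131). The shares of all genes called higher and lower were 14.1% and 10.7%. With the block 3 of the 44 hosts were called higher and 11 lower, against 18.9% and 18.5% of all genes.

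In 7 tested pairs within Gas5 or an Snhg gene, 5 snoRNAs and 5 ratios were called higher. Snord47 rose more than Gas5 itself, with a ratio change of 1.08 ± 0.18 (SE, limma adjusted p = 0.00476). Snord22 relative to Snhg1 changed by 1.07 ± 0.34 (adjusted p = 0.0394, lost with any of 8 single libraries left out) and Snord87 relative to Snhg6 by 1.19 ± 0.29 (adjusted p = 0.0129). Snhg12 holds 4 tested snoRNAs. Of these Snora16a (ratio change 0.92, adjusted p = 0.0128) and Snora61 (0.84, adjusted p = 0.0367, lost with any of 7 single libraries left out) passed, and Snora44 (0.52, adjusted p = 0.321) and Snord99 (0.70, adjusted p = 0.163) did not. Snora16a was at 180, 205, 240, 199 and 224 in Helios− and at 366, 316, 361, 284 and 602 in Helios+, whereas Snora44 ran from 43.3 to 151 and from 84.5 to 199.

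**Figure D4:**
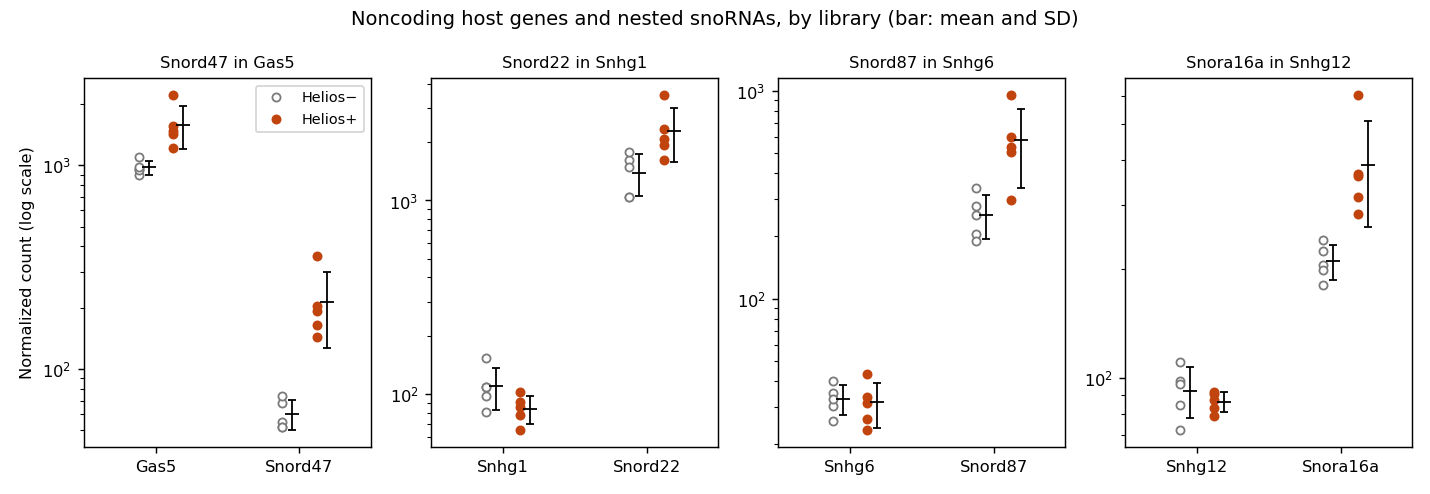
Normalized counts (log scale, y axis) of 4 noncoding host genes and a snoRNA nested in each, by library, with open grey points for Helios−, filled orange points for Helios+ and black bars for mean and SD (n = 5). Gas5 and Snord47 both lie higher in Helios+ without overlap, while Snhg1, Snhg6 and Snhg12 overlap between the groups beside their snoRNAs.

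Pairs within ribosomal protein genes numbered 22, in 18 hosts. Of their snoRNAs 13 were called higher and of the hosts 0 were called, at a median snoRNA change of 0.69 and a median host change of -0.15. The ratio was called higher in 9 of these pairs. Examples were Snora70 in Rpl10 (ratio change 1.31, adjusted p = 0.00476), Snord58b in Rpl17 (1.61, adjusted p = 0.00647), Snord16a in Rpl4 (1.14, adjusted p = 0.00637) and Snora21 in Rpl23 (0.85, adjusted p = 0.00637). Snord15b in Rps3 passed without the block (0.60, adjusted p = 0.0432) and not with it (adjusted p = 0.0604), and leaving out any of 9 single libraries ended its call. Snord15a did not pass (0.61, adjusted p = 0.0657). In Rps12 both Snora33 and Snord100 were called, but neither ratio passed (adjusted p = 0.159 and 0.115), and Rps12 had a change of 0.26 that itself did not pass without the block (adjusted p = 0.196).

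Other protein-coding hosts held 22 pairs, of which 7 snoRNAs and 8 ratios were called higher. They included Snora15 in Cct6a (ratio change 1.17, adjusted p = 0.00476), Snora34 in 2310037I24Rik, named Kansl2 in RefSeq (1.38, adjusted p = 0.00555), Snord61 in Rbmx (1.30, adjusted p = 0.0116), Snord8 in Chd8 (0.96, adjusted p = 0.0116) and Snord57 in Nop56 (0.95, adjusted p = 0.0178). Snora31 in Tpt1 had a called ratio (0.81, adjusted p = 0.038) although its own change of 0.42 did not pass, and any of 7 single libraries left out ended that call. Of 4 pairs in other noncoding hosts, Snord12 had a called ratio (1.48, adjusted p = 0.00539), while Snord49a and Snord49b rose beside their host 2410006H16Rik (log2 changes 0.89, 0.90 and 0.31) without a called ratio (adjusted p = 0.125 and 0.109, and 0.0423 for both with the block). With the block Snora5c relative to Tbrg4 also passed (adjusted p = 0.0197) and Snora23 relative to Ipo7 no longer did (0.0508).

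In all, 9 hosts held 2 or more tested snoRNAs. In 3 all were called (2410006H16Rik, Rps12 and Rps3), in 3 some were (Rpl13a, Snhg12 and Snhg7), and in 3 none was (Eif4a2, Gnb2l1 and Ncl). In Rpl13a, Snord34 was at 169, 128, 134, 112 and 147 in Helios− and 311, 248, 246, 164 and 457 in Helios+ (log2 change 0.97, adjusted p = 0.0045). Its neighbour Snord35a was also called (0.84, adjusted p = 0.0214), and Snord32a was not (0.47, adjusted p = 0.0924). Differences between snoRNAs of 1 host were not tested.

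How reads were shared between a snoRNA and its host depends on the authors' counting, and the annotation, the strand setting and the treatment of reads that match more than 1 place are unknown here. In GENCODE M21, 28 of the 62 tested snoRNAs lie wholly within exons of another gene on the same strand, among them Snord47 in Gas5, Snord22 in Snhg1 and Snora70 in Rpl10. Levels of these rows and the ratios to their hosts are uncertain. Of the 28, 14 were called higher (median log2 change 0.60). Of the 29 that share no base with another gene's exons on the same strand, 15 were (median 0.69). The other 5 share part of their bases on that strand, and 2 of them, Snora15 and Snora34, were called higher (median of the 5, 0.68). Their levels and ratios are uncertain in the same way.

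The differences were also looked at within each replicate number. Over the 62 snoRNA rows the median log2 difference between the 2 libraries of a number was 0.67, 0.40, 0.48, 0.34 and 1.24 for replicates 1 to 5, with 55, 49, 52, 49 and 62 rows higher in Helios+. Over all genes tested the medians lay between -0.03 and -0.01. The pair of replicate 5 was thus the widest, and each of the 5 had its median above 0. Over the 9 host rows the medians were 0.25, -0.24, -0.20, -0.10 and -0.22. Spread was larger in the members than over all genes tested, without matching for level. The median coefficient of variation of the snoRNA rows was 20.6% in Helios− and 36.5% in Helios+, and that of the host rows 23.6% and 24.5%. Over all genes tested it was 14.5% and 11.1%. Helios+ replicate 5, the highest library for 55 of the 62 snoRNA rows, is part of the Helios+ values.

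**Figure D5:**
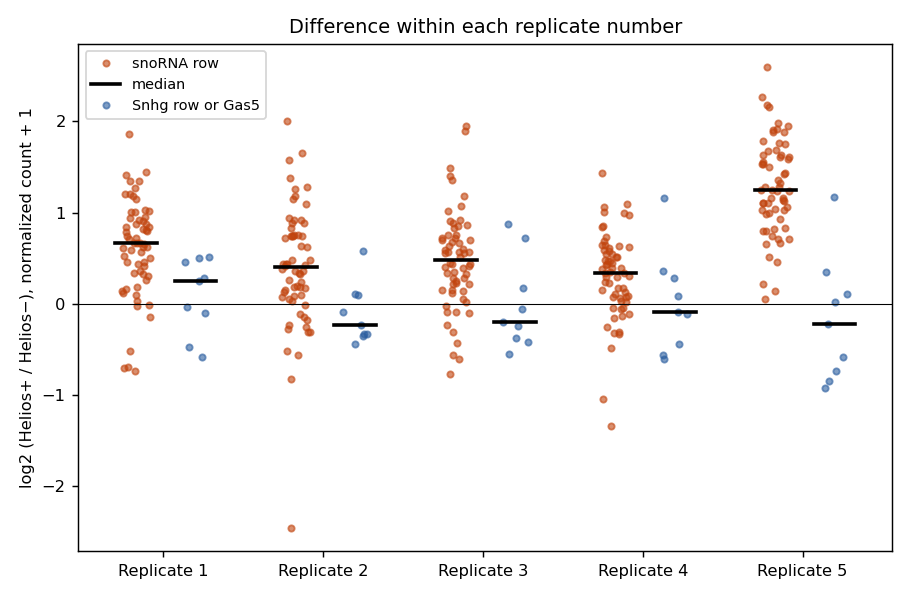
Log2 difference between the Helios+ and the Helios− library of the same replicate number (y axis), for the 62 tested snoRNA rows (orange) and the 9 tested host rows (blue), with black lines at the medians. Snord and Snora rows have medians above 0 in every pair, highest in replicate 5 at 1.24.

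With the replicate number as a block, 38 snoRNA rows were called higher and none lower, against 18.9% of all genes higher and 18.5% lower. The 7 rows added were Snora43, Snora68, Snord104, Snord111, Snord68, Snord82 and Snord99, with adjusted p from 0.00575 (Snord104) to 0.0494 (Snord111) in that fit and from 0.0757 (Snord111) to 0.217 (Snord82) without the block.

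Genes for proteins that act with snoRNAs or in ribosomal RNA processing and RNA decay were taken from 8 lists. Of their 119 tested genes, 2 were called higher (1.68%) and 13 lower (10.9%), against 14.1% and 10.7% of all genes, so that the share called lower was near the background. Of the 15 calls, 6 held with any single library left out (Wdr46, Utp14a, Diexf, Wdr12, Ddx18 and Polr1a), and the other 9 ended without at least 1 of the libraries. Of the 4 core box C/D proteins tested, Nop56 was called lower and Nop58, Fbl and Nhp2l1 were not called, and of the 4 core box H/ACA proteins (Dkc1, Nhp2, Nop10 and Gar1) 0 were called (log2 change of Dkc1, the pseudouridine synthase, -0.07, adjusted p = 0.691). Of 12 assembly factors, 1 was called higher, Naf1, which brings the box H/ACA proteins together. It was at 80.8 to 127 in Helios− and 104 to 157 in Helios+ (log2 change 0.45, adjusted p = 0.0321), and the most abundant, Nolc1, did not pass. With the block 2 were called higher and 1 lower. Of 33 proteins of the small-subunit processome, the nucleolar machine that holds the early ribosomal RNA precursor, 6 were called lower and 0 higher, at a median of -0.16. They were Wdr46 (-0.48, adjusted p = 0.000365), Utp14a (-0.32), Diexf (-0.38), Mphosph10, Cirh1a and Utp20, whereas Bms1, the most abundant, did not pass (-0.14). With the block 11 were called lower and 0 higher.

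Of 18 abundant nucleolar proteins, Wdr12 (-0.64) and Ddx18 (-0.33) were called lower and 0 higher. Ncl, the most abundant, did not pass (0.10). Of 16 genes of the RNA polymerase I list, Polr1a, its largest subunit, was called lower (-0.30, adjusted p = 0.00157), and Ubtf did not pass (0.08). Of 13 nonsense-mediated decay factors, Smg5 was called lower (-0.32, adjusted p = 0.0217). Smg1, the most abundant, was not called. Of 19 genes for trimming of snoRNA ends, Exosc10 (-0.19) and Papd5 (-0.21) were called lower and Mphosph6 higher (0.38), and Zcchc7 was not called. With the block the counts lower and higher were 3 and 1 for the nucleolar list, 3 and 0 for polymerase I, 4 and 2 for the decay factors and 4 and 1 for end trimming. Of 76 ribosomal protein genes, Rpl35a alone was called (-0.48, lower), at a median of -0.16, and the most abundant, Rpl5, did not pass. With the block 1 ribosomal protein gene was called higher and 19 lower, against 18.9% and 18.5% of all genes.

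Among other small or abundant noncoding RNAs, 6 of 15 tested were called higher and 0 lower, at a median of 0.46, and 9 higher and 1 lower with the block. These were taken by symbol (Scarna, Rnu and some named RNAs), so the list may hold snoRNAs that lack a Snord or Snora symbol. Scarna10, a guide RNA of Cajal bodies, was at 323, 350, 483, 322 and 433 in Helios− and at 570, 617, 552, 534 and 685 in Helios+, without overlap (log2 change 0.64, adjusted p = 0.000581). Scarna13 (0.46, adjusted p = 0.00748), Rnu11 of the minor spliceosome (0.90, adjusted p = 0.0121), Rnu73b (0.95, adjusted p = 0.0455), the RNase MRP RNA Rmrp (0.46, adjusted p = 0.0283) and the telomerase RNA Terc (0.53, adjusted p = 0.0353) were the others. The calls of Rmrp, Terc and Rnu73b ended with any of 6, 6 and 8 single libraries left out (adjusted p up to 0.128), and those of the other 3 held. For Rmrp, the most abundant of these 6, levels were 8652 to 13579 against 12543 to 19951, highest in Helios+ replicate 5. The long nuclear RNA Malat1 (-0.40, adjusted p = 0.144) and the ribosomal precursor row Rn45s (-0.14, adjusted p = 0.696) did not pass.

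Transcript length was set beside these results. Of the 99 tested genes with annotated exons under 300 bases in total, 40 were called higher and 2 lower, at a median log2 change of 0.46. Leaving out the Snord and Snora rows, 37 remained, of which 9 were called higher and 2 lower, at a median of -0.02. The annotation typed 67 tested genes as snoRNA, 35 of them called higher, more than the 62 Snord and Snora rows tested. The 37 may therefore still hold snoRNA genes under other symbols. Genes of 300 to under 500 bases (44) had 11 higher and 0 lower at a median of 0.32, and in the longer classes the medians lay between -0.04 and 0.02. The 23 tested microRNA genes had 2 called higher and 2 lower, at a median of -0.19. Cell cycle genes also moved with the groups: 9 of 18 tested were called higher and 0 lower, with a summed level of 3679 to 4015 normalized counts in Helios− and 5205 to 5566 in Helios+. Mki67, a proliferation marker, was the most abundant (log2 change 1.06), and Top2a (1.15), Mcm6 (0.73) and Kif11 (1.56) had the smallest p. The part of transcript length and of cell cycle state in the snoRNA result was not tested.

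Of the 31 called snoRNA rows, 25 kept an adjusted p under 0.05 with any single library left out, and 17 did so under each of the 25 alternatives that gave them a value. The 17 were Snora15, Snora16a, Snora17, Snora21, Snora23, Snora34, Snora52, Snora62, Snora70, Snora74a, Snord12, Snord34, Snord47, Snord49b, Snord58b, Snord8 and Snord89. The 6 rows that lost the call with some library left out were Snora61, Snord15b, Snord22, Snord35a, Snord61 and Snord83b, with adjusted p up to 0.119.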

How the data were processed

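The deposited table gives 1 value per gene and library, and its values were normalized counts (a signal in which whole reads could be recovered): dividing each library by 1 factor gave whole reads for 100% of values, within 0.001. Per the submitters' processing notes, HISAT2 2.0.4, HTSeq and DESeq2 were used with mm10. The annotation, the strand setting and the gene filter are not known here. Depth was 4872348 to 6948692 recovered reads per library.

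Genes with a mean of at least 10 were tested with limma 3.58.1 (trend, robust) on log2(normalized count + 1), with Benjamini-Hochberg adjustment over all 10718. On this scale the changes of low genes are understated. SnoRNA-to-host ratios were fitted in the same way over 173 nested pairs. Both fits were run on simulated counts, drawn independently and with the same dispersion for all genes. That setting holds no joint shift of rows in a library, so it could not test this feature of the snoRNA rows. Same-numbered libraries deviated together (correlations 0.481, 0.194, 0.388, 0.161 and 0.146), while correlations between different numbers ran from -0.413 to 0.117. The main fits used the group only and left the replicate number out. The numbers were taken as pairs in the block alternative and in the differences within each number. Named genes were all called members, the 4 most abundant and the extreme rows of each class, hosts of called snoRNAs, the most significant and most abundant genes of each list, and the 2 most abundant of each marker list. Members and lists were chosen with earlier results of these data known. Coordinates were matched to GENCODE M21 (99 of 101 members; Snhg4 and Snhg7 were not matched). Alternatives were other pseudocounts, filters and scalings, the block, edgeR 4.0.16, DESeq2 1.42.0 and left-out libraries.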

Additional observations from a re-analysis of the deposited data

Results flagged for a closer look

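In the 94 groups of 5 libraries tested, which covered only a part of the members, 8 held a single library far from the other 4. The gap was over 0.71 of the group's range. In all 8 this was Helios+ replicate 5 as the highest library. Chance flags about 1 in 20 groups, and members measured in the same library are not independent. The values in that library were 601.5 normalized counts for Snora16a, 1083 for Snora21, 53.31 for Snora28, 197 for Snora52, 4058 for Snord15a, 359.3 for Snord47, 66.06 for Snord49a and 369.7 for Snord83b. The call of Snord83b ended when any 1 of 4 libraries was left out. For the other 7 rows no single left-out library ended the call. Low rows outside these groups also held a library apart, not always Helios+ replicate 5. Snora69 was at 6.84 in Helios+ replicate 3 and at 17.4 to 20.1 in the other Helios+ libraries. Snord11 was at 30.1 in Helios+ replicate 5 and at 13.4 to 15.7 in the others of its group.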

How the results depend on the processing

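No called snoRNA changed direction under any of the 25 alternatives. Over all genes, 1979 were called lower with the replicate block and 748 without both libraries of replicate 4, against 1143, and 927 to 1293 with single libraries left out. Box C/D rows called higher fell from 18 to 11 without both libraries of replicate 1, and all genes called higher from 1512 to 1499. With quantile normalization 1 box C/D row, Snord95, was called lower (log2 change -1.41, adjusted p = 0.0224). Host rows called lower numbered 1 (Snhg1) with the replicate block and, with single libraries left out, 0 to 1, the 1 without Helios− replicate 3 (adjusted p = 0.0374). Beyond the 7 snoRNA rows and Snhg1 given above, the replicate block changed no call of a member, and of the ratio calls it changed only the 5 given above. With single libraries left out, the ratio was called higher in 14 to 28 pairs. In the same fits 13 to 26 box C/D rows and 12 to 14 box H/ACA rows were called higher, and 1332 to 1614 of all genes. The summed host level without its most abundant row, Gas5, had a fold of 0.9066.

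Some hosts that did not pass changed sign: Eif5 (0.04914 with quantile normalization, 0.02581 with scaling to the sum without Rn45s and Malat1), Rplp2 (0.002223 with quantile normalization), and Rpl3 (-0.001146 with DESeq2, -0.05987 without both libraries of replicate 1, -0.1092 to 0.1246 with single libraries left out). Rpl17 ran from -0.2741 to 0.01519 with single libraries left out, and was 0.008951 and 0.01947 without both libraries of replicates 3 and 4. Snhg6 ran from -0.1911 to 0.02681 with single libraries left out, and was 0.05224 without both of replicate 4. The cause of these shifts was not tested. Rows below a mean of 10 rest on few reads: without a filter on low values, 32 of all 90 snoRNA rows were called higher, against 31.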
